A study of Mus musculus with 6 samples.

Results

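The Kcnq1ot1 imprinted domain was taken as chr7:150280001-150720000 of mouse build mm9, a stretch of 440 kb that holds Kcnq1, Kcnq1ot1, Cdkn1c, Phlda2 and Slc22a18. It was read in windows of 1 kb, 440 of the 2641877 such windows on chromosomes 1 to 19, X and Y. The interval and its control region, the 1.8 kb at chr7:150480701-150482500 taken as the start of Kcnq1ot1, were chosen by their coordinates, with the reads of these libraries already known. The members were thus in effect selected on read counts of the same lists. All values below are therefore a description, and none carries a test. The 6 libraries came from embryonic stem (ES) cells of the C57Bl/6 mouse strain kept in leukaemia inhibitory factor (LIF) with no feeder layer, and no group had a further treatment or a changed gene. They were 1 chromatin immunoprecipitation (ChIP) of the histone variant H2A.B with a rabbit antibody made by the submitters, 1 ChIP with rabbit IgG, 3 methylated DNA immunoprecipitations (MeDIP) of 5-methylcytosine (5mC) with the mouse antibody clone 33D3, and 1 MeDIP with mouse IgG. IgG is a non-specific antibody and its libraries measure background. The cells carry the same strain's DNA on both parental chromosomes, so maternal and paternal reads could not be separated, and the labels name neither the number of cultures nor the clone. Read lists hold no expression values, so the labelled cell type was not checked against markers.

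Imprinted genes are expressed from the maternal or the paternal copy only. In this domain the control region is a CpG-rich element methylated on the maternal chromosome from the egg onward, and it holds the promoter of Kcnq1ot1, a long non-coding RNA read antisense to Kcnq1 from within an intron of that gene. On the paternal chromosome the unmethylated promoter is active, and the RNA silences its neighbours in cis. The neighbours are Kcnq1, a potassium channel subunit, Cdkn1c, an inhibitor of cyclin-dependent kinases that restrains growth, Slc22a18, a membrane transporter, and Phlda2, which restrains growth of the placenta. H2A.B is a short histone H2A variant that lacks part of the C-terminal tail and forms nucleosomes that wrap less DNA.

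MeDIP recovers methylated cytosine, which in mouse DNA lies mostly in CpG pairs, so the promoters are shown with each CpG in capitals. Of the 5 genes, Kcnq1ot1, Phlda2 and Slc22a18 had an entry in the RefSeq promoter table of build GRCm38.p6, 250 bases before to 50 after the gene's start, and Kcnq1 and Cdkn1c are named only. These coordinates are not those of mm9, the build of the read lists, and no position was carried from the former to the latter. The first sequence is that of Kcnq1ot1, chr7:143296498-143296797 on the minus strand. The second is that of a neighbour with many more CpG, chr7:143502475-143502774 on the minus strand. Whether the first lies in the control region as taken in mm9 was not checked, so its CpG count is not given as that of the region.
Kcnq1ot1: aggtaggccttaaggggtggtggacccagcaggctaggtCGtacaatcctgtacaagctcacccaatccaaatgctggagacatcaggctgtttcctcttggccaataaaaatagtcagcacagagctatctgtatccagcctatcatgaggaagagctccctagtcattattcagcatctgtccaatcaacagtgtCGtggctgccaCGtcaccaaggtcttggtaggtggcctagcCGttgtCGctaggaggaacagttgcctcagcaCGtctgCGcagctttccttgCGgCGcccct
Phlda2: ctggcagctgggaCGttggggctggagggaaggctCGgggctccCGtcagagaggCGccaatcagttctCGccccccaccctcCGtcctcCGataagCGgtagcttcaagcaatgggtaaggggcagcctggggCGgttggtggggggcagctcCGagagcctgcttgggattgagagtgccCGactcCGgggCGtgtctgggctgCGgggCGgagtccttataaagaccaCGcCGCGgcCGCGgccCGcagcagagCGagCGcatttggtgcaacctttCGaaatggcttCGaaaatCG
The Kcnq1ot1 window held 9 CpG, close to the median of 7 over all 32851 promoters of the table, of which 45.8% held at least as many. Its GC content was 53.3% and its CpG pairs stood at 0.423 of the number its base composition would give. The Phlda2 window held 26 CpG, a number reached by 16.9% of promoters, at a GC content of 65.7% and a ratio of 0.819. That of Slc22a18 held 2 CpG, a number reached by 85.9% of promoters. Searched on both strands, the motif CCAAT occurred 3 times in the Kcnq1ot1 window, each on the strand shown, and 3.37% of promoters held as many. Phlda2 had 1 match, as 37.4% of promoters had at least, and Slc22a18 had none. A match is a description of letters and not of a bound site. In the same build the genes follow each other as Kcnq1, Kcnq1ot1, Cdkn1c, Slc22a18 and Phlda2. No mm9 annotation was used here, so none of the windows below was given to an exon, an intron or a gene.

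Reads were counted once per 5′ position and strand (distinct reads) and scaled per 1000000 distinct reads of the library (CPM). H2A.B ChIP held 8053559 distinct reads, of which 2133 lay in the domain. The 5mC replicates 1, 2 and 3 held 1396972, 1893285 and 803580, with 382, 257 and 139 in the domain. IgG ChIP held 539303, with 98 in the domain, and IgG MeDIP 124157, with 11. The intervals given below are exact 95% intervals and cover counting error only.

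Features of the lists bear on what follows. H2A.B ChIP and 5mC replicate 1 have reads of 42 bp from the same sequencing lane, and the other 4 libraries have reads of 50 bp from another flow cell. For H2A.B against IgG ChIP the antibody and the sequencing run cannot be told apart. The 201263 reads of IgG MeDIP also stood in the list of 5mC replicate 2 and were taken out of the latter. The list of 5mC replicate 2 runs in 4 sorted blocks and that of replicate 3 in 3. Whether the blocks are separate runs is not given. Outside the format of their lists, without tabs between fields, stood 1 line of H2A.B ChIP and the last 8 lines of 5mC replicate 1. All 9 name reads of the control region. They are left out unless stated. Whether the lists of these libraries otherwise stand as sequencing and alignment gave them was not tested. The control-region counts and ratios of H2A.B and 5mC replicate 1 below are therefore those of the deposited lists, and not every line counted may be a sequenced fragment.

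The control region held many reads in the pair of libraries from the first lane and almost none in the others. H2A.B ChIP had 32 distinct reads there and 5mC replicate 1 had 29, while 5mC replicates 2 and 3 had 1 each and IgG ChIP and IgG MeDIP had 0. In 5mC replicate 1 the region stood at 16.1 reads per kb against 0.806 in the rest of the domain, which is 20.0 times as much (95% interval 13.2 to 29.2). That region of 1.8 kb took 7.59% of the library's reads in the domain. The same ratio was 0.951 (0.0240 to 5.35) in replicate 2 and 1.76 (0.0444 to 9.99) in replicate 3. The intervals of replicates 2 and 3 both end below the lower bound of replicate 1. Over the 3 replicates the mean was 7.57 ± 10.8 (SD, n = 3), a spread larger than the mean, and without replicate 1 it was 1.36.

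In CPM the region stood at 20.8 (13.9 to 29.8) in 5mC replicate 1, 0.528 (0.0134 to 2.94) in replicate 2 and 1.24 (0.0315 to 6.93) in replicate 3, with a mean of 7.51 ± 11.5 (SD, n = 3). The count of 0 in IgG MeDIP allows up to 24.2 CPM, the worth of 3 counts, which is above the level of each 5mC library. An excess of 5mC over its IgG background in the control region was thus not detectable at this depth. The difference among the 5mC replicates does not depend on that background. Of the 1415631 windows of 1.8 kb kept from the genome, 610 (0.0431%) held at least 29 distinct reads of replicate 1. The single read of replicate 2 was matched or exceeded by 803072 (56.7%) and that of replicate 3 by 560706 (39.6%). Among the 610 windows, 32 had at most 1 read in both replicate 2 and replicate 3, and the control region was in that group.

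In H2A.B ChIP the control region held 17.8 reads per kb against 4.80 in the rest of the domain, which is 3.71 times as much (2.53 to 5.25). This number of reads was reached by 1684 (0.119%) of the windows of 1.8 kb. IgG ChIP had no read there, and its 0 allows up to 5.56 CPM, above the 3.97 CPM (2.72 to 5.61) of H2A.B. An excess of H2A.B over IgG in the control region was therefore not detectable at this depth either. Of the 1684 windows, 481 had no IgG ChIP read. Both the H2A.B and the 5mC replicate 1 counts of the control region were reached by 204 windows, and 2 of these, the control region among them, had at most 1 read in both other 5mC replicates.

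**Figure D1:**
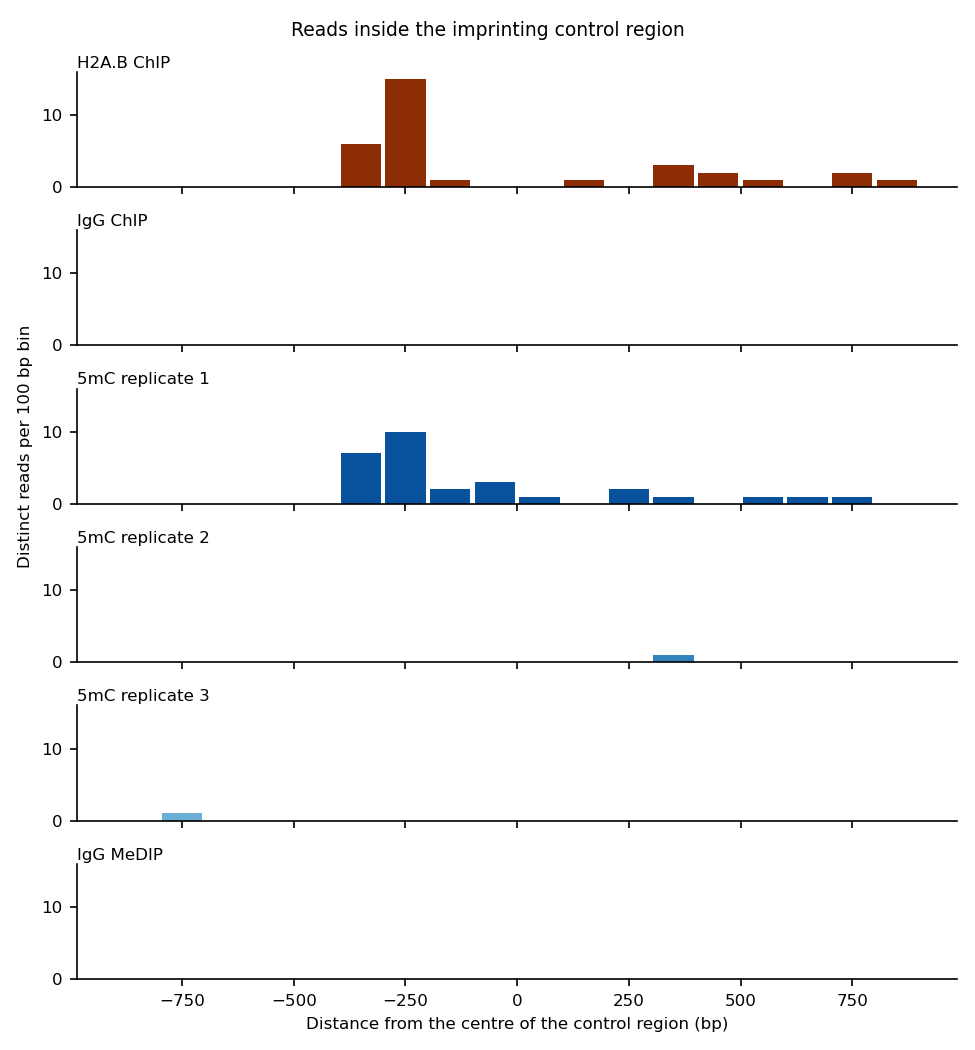
Distinct reads per 100 bp bin (vertical axis, the same scale in the 6 panels) against distance in bp from the centre of the control region. Bars of H2A.B ChIP and 5mC replicate 1 reach 15 and 10 in the same bin, 5mC replicates 2 and 3 have 1 read each, and both IgG panels are empty.

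Inside the region the reads of H2A.B and 5mC replicate 1 lay in the same place. The 100 bp at chr7:150481301-150481400 held 15 H2A.B reads and 10 of 5mC replicate 1, and the 100 bp before it held 6 and 7. Together these 200 bp, singled out after the counts were seen, held 21 of the 32 H2A.B reads, 9 on the plus and 12 on the minus strand. They held 17 of the 29 reads of 5mC replicate 1, 8 plus and 9 minus, and no read of the other 4 libraries. Outside the 200 bp the region held 11 H2A.B reads (6.88 per kb) and 12 of 5mC replicate 1 (7.5 per kb), against 4.80 and 0.806 per kb in the rest of the domain. In the first 5 bins of 100 bp, chr7:150480701-150481200, both libraries had 0 reads and 5mC replicate 3 had its single one. H2A.B and 5mC replicate 1 shared 4 exact read starts in the whole domain, of which 3 lay in the control region. Each other pair of libraries shared at most 2, none of them there. With 1 read or none in the region, the other 4 libraries could share almost no start there. The number of shared starts to be met by crowding alone was not computed.

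The lists of H2A.B and 5mC replicate 1 run in the order of sequencing, and reads of the control region lay close together in them. In the H2A.B list 6 of the 32 reads stood between lines 7864755 and 7866042, on tile 2303 of the flow cell, with starts from 150481283 to 150481379, 3 on each strand. For comparison, 10373 windows of 1.8 kb held 20 to 60 distinct H2A.B reads. Within 2000 lines the median window had at most 1 of its reads, the highest other window had 3, and the control region was the 1 window with 6. The span of 2000 lines was picked after the order was seen. With 5000 lines the numbers were 6 for the control region and 4 for the highest other window, and with 1000 lines they were 4 and 3.

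**Figure D2:**
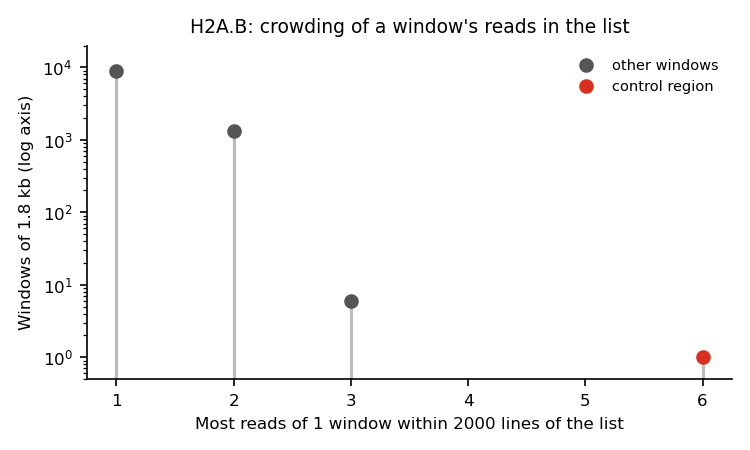
Number of 1.8 kb windows with 20 to 60 distinct H2A.B reads (vertical, log axis) by the most reads of a window found within 2000 lines of the list (horizontal). The other windows lie at 1 (9030 windows), 2 (1336) and 3 (6), and the control region lies at 6.

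Counted as neighbours in the list at most 1000 lines apart, the control region had 7 pairs of H2A.B reads, and no other of the 10373 windows had more than 3. In 5mC replicate 1 it had 5 pairs. There the same or a higher number was found in 3 of 1729 windows, the control region included, and the highest other window had 8. For the most reads within 2000 lines, the control region of 5mC replicate 1 had 2, as many as 651 of the 1729 windows had at least, so by that measure it did not stand apart. The reads within 1000 lines of another were 10 of 32 in H2A.B and 10 of 29 in 5mC replicate 1, and all 20 lay in the 200 bp above. Of the remaining reads, 11 of 22 and 7 of 19 lay there. Without the crowded reads the region held 2.55 times the rest of the domain (1.59 to 3.87) in H2A.B and 13.1 times (7.79 to 20.8) in 5mC replicate 1. The cause of the crowding was not tested.

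**Figure D3:**
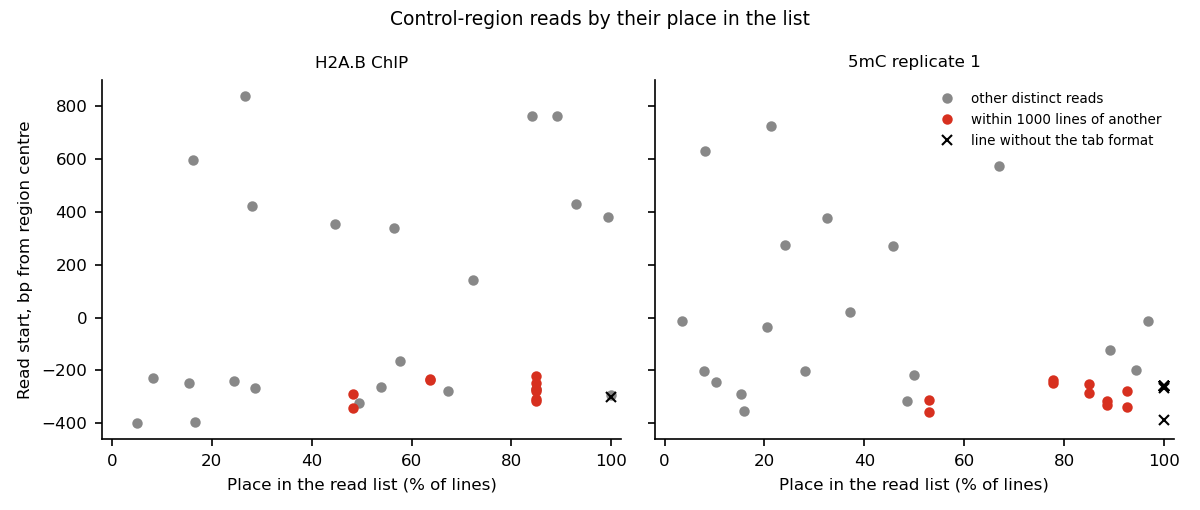
Start of each distinct control-region read in bp from the region's centre (vertical) against its place in the read list as percent of lines (horizontal), for H2A.B ChIP and 5mC replicate 1. Red points, 10 in each panel, stand within 1000 lines of another and lie in the same 200 bp, and crosses are the lines without the tab format.

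The 9 lines without the tab format also fell in those 200 bp, from 150481211 to 150481342. The H2A.B line, number 9254039, names a plus-strand read at chr7:150481301-150481342. The 8 lines of 5mC replicate 1 name 1 read at chr7:150481291-150481332 on the minus strand, 1 at chr7:150481211-150481252 on the plus strand, and 6 at chr7:150481301-150481342 on the minus strand. A read name ends in the x and y position of the cluster on its tile. The last tab-format line of 5mC replicate 1, a read of chromosome 2, has x 5595 and y 99689. The first 2 of the 8 lines have the same x, with y higher by 100 and by 200, and the last 6 share y 99999. The x values of these 6 are 5585, 5495, 4595, 5695, 5575 and 3595, each differing from 5595 in 1 digit. All 8 lines name tile 2316, as does that last tab-format line. Among the tab-format reads of the whole list, which has 96 tiles, 34 have y 99999. The last line of the H2A.B list has tabs and is a read of the control region as well, at chr7:150481267-150481308. With the 9 lines counted, the control region held 33 distinct H2A.B reads, or 3.82 times the rest of the domain (2.62 to 5.39), and 32 of 5mC replicate 1, or 22.1 times (14.9 to 31.7). The y of the region's distinct tab-format reads was also set against the median y of the lines around each. It differed by at most 144 in H2A.B and 141 in 5mC replicate 1. Over all tab-format lines the 99th percentile of that difference was 177 and 209, so by this measure these names did not stand apart. Any name with a y close to that of its neighbours passes this measure, so it cannot tell whether a line is a sequenced read. The steps of 100 and 200 in the lines without the tab format are themselves below 209. How the 9 lines came into the lists was not tested. Neither was whether tab-format lines of the region have the same origin. The 32 and 29 reads given for the region hold only as far as the lists do.

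**Figure D4:**
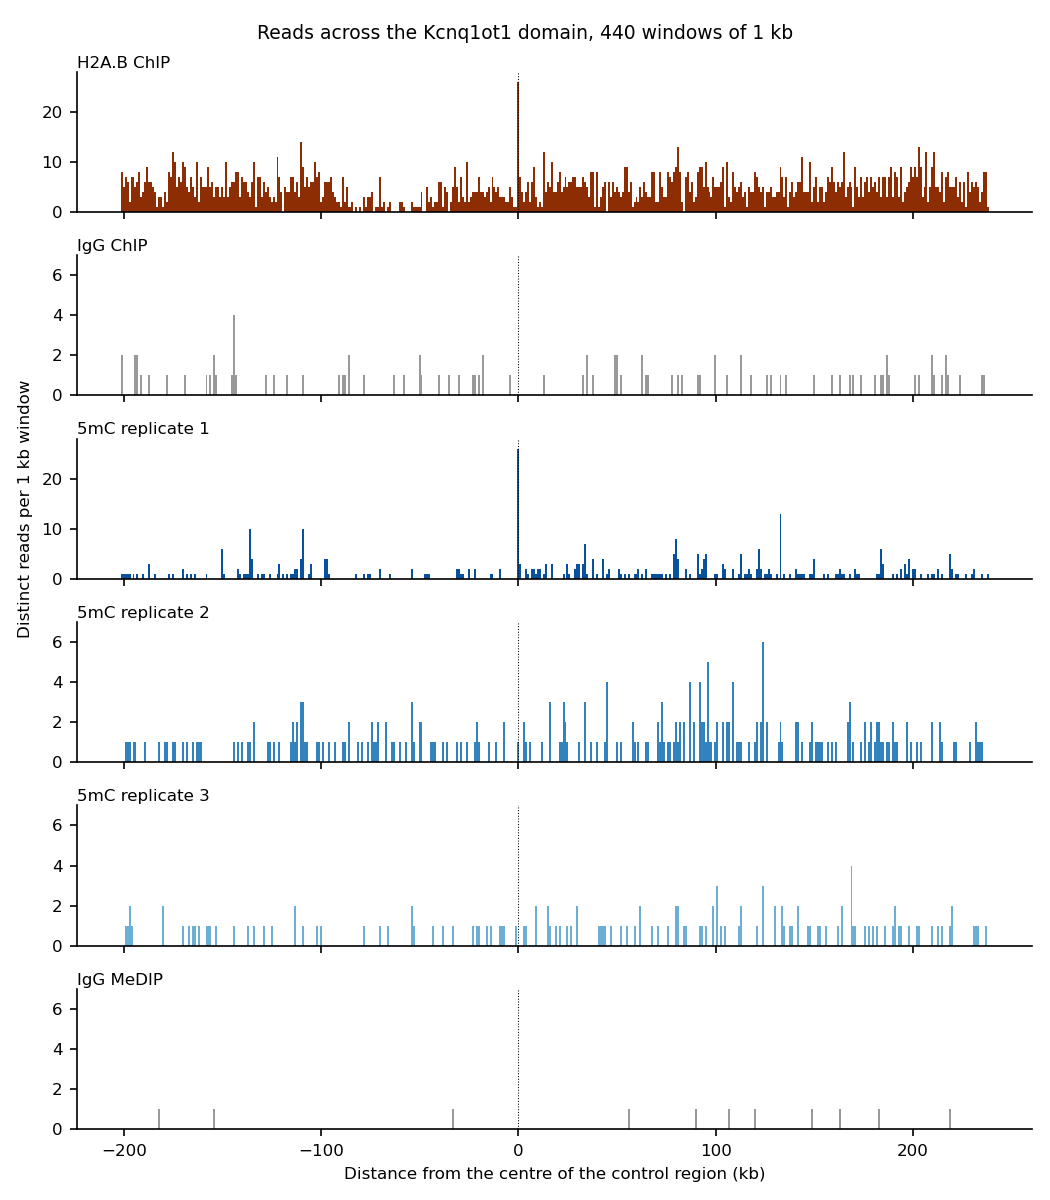
Distinct reads per 1 kb window (vertical, 0 to 28 for H2A.B ChIP and 5mC replicate 1 and 0 to 7 for the others) against distance in kb from the centre of the control region, dotted. The window at the dotted line holds 26 reads of H2A.B and 26 of 5mC replicate 1, and no window of 5mC replicates 2 and 3 exceeds 6 and 4.

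In windows of 1 kb, the same place gave the highest count of the domain in both libraries of the first lane. The window chr7:150481001-150482000 held 26 H2A.B reads, 26, 1 and 0 reads of 5mC replicates 1, 2 and 3, and none of either IgG, for a 5mC level of 6.38 ± 10.6 CPM (SD, n = 3). Of the other windows that touch the control region, the one before it, chr7:150480001-150481000, was low, with 1 H2A.B read and 0, 0 and 1 of 5mC. The one after it, chr7:150482001-150483000, held 7 H2A.B reads, above the domain median of 5, and 3, 0 and 0 of 5mC. After the control region the highest 5mC level was at chr7:150614001-150615000, with 13, 2 and 0 reads (3.45 ± 5.09 CPM, SD, n = 3). There H2A.B had 9 reads and IgG ChIP 1. At chr7:150345001-150346000 the reads were 10, 1 and 0. Each of these high means rested on replicate 1, and the SD exceeded the mean.

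Windows with a read in each 5mC replicate lay elsewhere in the domain. Such recurrent windows numbered 28 of 440 (6.36%), against 5.03% of all 1 kb windows of the genome, and 0 of the 3 windows that touch the control region was among them. The share did not keep its side of the genome: with 2 or more reads asked of each replicate it was 2 of 440 (0.455%) against 0.512%, and with the first sorted block of the replicate 2 list alone 14 of 440 (3.18%) against 3.55%. None of the 28 held an IgG MeDIP read. Below the control region 8 of 200 windows were recurrent, and above it 20 of 237. The highest were chr7:150372001-150373000 with 10, 3 and 1 reads (3.33 ± 3.32 CPM, SD, n = 3) and chr7:150561001-150562000 with 8, 2 and 2 (3.09 ± 2.39 CPM). H2A.B had 9 reads in each. Depth limits this count, since 255, 262 and 326 of the 440 windows held no read of 5mC replicates 1, 2 and 3, and 429 held none of IgG MeDIP.

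Windows high in H2A.B, with at least 12 reads or 4 times the genome median of 3, numbered 9 of 440 (2.05%), against 1.1% of the genome's windows. The median window of the domain held 5 H2A.B reads and 18 windows held none. After the control region with 26, the most were 14 at chr7:150371001-150372000, 13 at chr7:150562001-150563000 and 13 at chr7:150684001-150685000. The other 5 windows tied at 12 reads, and they start at 150306001, 150494001, 150646001, 150688001 and 150692001. IgG ChIP had at most 1 read in each of the 9. The window with 14 reads adjoins the recurrent 5mC window at chr7:150372001-150373000. That at chr7:150562001-150563000 was itself recurrent, with 4, 1 and 2 reads of 5mC, the 1 window of the domain under both rules, and it adjoins the recurrent window at chr7:150561001-150562000. At chr7:150684001-150685000 the 5mC reads were 0, 0 and 1, so a high H2A.B count also occurred where 5mC reads were few.

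Over 20 kb sections, H2A.B was set against IgG ChIP by a rule of size with no replicate behind it. A section was called enriched where the CPM ratio was at least 1.5 and the lower bound of its exact interval lay above 1. This held for 4 of the 22 sections, against 2.35% of the 127407 windows of 20 kb in the genome, and the mirrored rule held for 0, against 3.62%. The section with the control region, chr7:150480001-150500000, had 115 H2A.B reads and 1 of IgG, a ratio of 7.70 (1.35 to 307). At chr7:150620001-150640000 the counts were 103 and 1, a ratio of 6.90 (1.21 to 275). The sections chr7:150300001-150320000 and chr7:150360001-150380000 each had 120 and 2, a ratio of 4.02 (1.09 to 33.6). In each of the 4 the H2A.B count lay within the range of the others, 28 to 141, and the IgG count was 1 or 2, at the lower end of its own range of 1 to 11. Each call thus rests on 1 or 2 IgG reads.

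**Figure D5:**
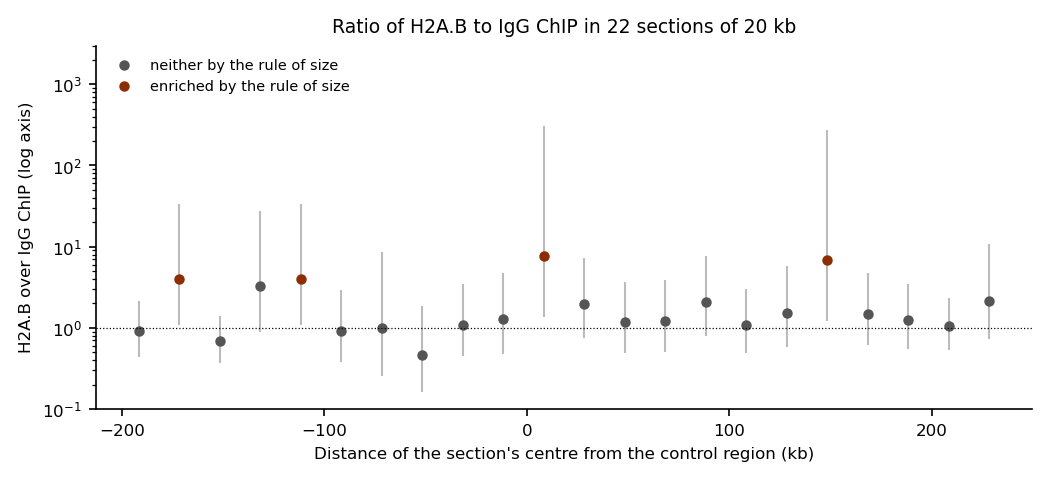
Ratio of H2A.B to IgG ChIP in CPM (vertical, log axis) in the 22 sections of 20 kb by distance in kb of the section's centre from the control region, with exact 95% intervals as lines. The 4 sections called enriched have lower bounds from 1.09 to 1.35, just above the dotted line at 1.

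The lowest upper bounds were those of chr7:150320001-150340000, with a ratio of 0.682 from 112 reads of H2A.B and 11 of IgG (0.367 to 1.41), chr7:150420001-150440000, with 28 and 4 and a ratio of 0.469 (0.164 to 1.84), and chr7:150280001-150300000, with 108 and 8 and a ratio of 0.904 (0.443 to 2.15). The highest H2A.B count, 141 at chr7:150680001-150700000, came with 9 IgG reads and a ratio of 1.05 (0.537 to 2.34). H2A.B counts and IgG counts of the 22 sections were not ordered alike, with a Spearman's rho of 0.0063.

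For 5mC the sections ranked differently from replicate to replicate at the top. The section with the control region was the highest of replicate 1, with 48 reads, and held 9 and 8 reads of replicates 2 and 3. The section chr7:150560001-150580000 was the highest of replicate 2, with 30 reads, and held 37 and 9 of replicates 1 and 3. The lowest, median and highest section counts were 4, 13.5 and 48 in replicate 1, 3, 11 and 30 in replicate 2, and 1, 6.5 and 11 in replicate 3. IgG MeDIP had at most 1 read in a section, so no ratio was formed. Spearman's rho over the 22 sections was 0.53 between replicates 1 and 2, 0.45 between 1 and 3 and 0.48 between 2 and 3. Without the section of the control region the first of these was 0.61, and Pearson's r went from 0.51 to 0.72. Between H2A.B and 5mC replicate 1 rho was 0.50, and 0.47 without that section. The points share base composition and, for H2A.B and replicate 1, a lane.

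The 2 sections at chr7:150400001-150440000, chosen after their H2A.B counts were seen, were low in the libraries of the first lane. H2A.B had 58 reads there, or 1.45 per kb against 5.19 in the other 20 sections, a ratio of 0.279 (0.211 to 0.363). The 5mC replicate 1 had 11 reads and a ratio of 0.296 (0.147 to 0.537). In 5mC replicate 2 the 26 reads gave 1.13 (0.720 to 1.69), in replicate 3 the 7 reads gave 0.530 (0.209 to 1.12), and in IgG ChIP the 6 reads gave 0.652 (0.233 to 1.47). IgG MeDIP had no read in the stretch. The intervals of replicate 1 and replicate 2 do not overlap, and the share of read length in this was not tested.

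On the side of higher coordinates the reads were denser than on the lower side in 4 libraries. In H2A.B there were 5.29 reads per kb above and 4.21 below the control region, a ratio of 1.26 (1.15 to 1.37). The ratio was 1.73 (1.38 to 2.17), 1.56 (1.20 to 2.04) and 1.87 (1.29 to 2.74) in 5mC replicates 1, 2 and 3, with a mean of 1.72 ± 0.154 (SD, n = 3). All 3 5mC libraries thus had the same direction with little spread. In IgG ChIP it was 0.995 (0.656 to 1.51). In IgG MeDIP the 3 reads below and 8 above gave 2.25 (0.541 to 13.2), an interval that holds the 5mC values as well as 1. The lower side holds the low stretch at chr7:150400001-150440000, with 1.45 reads per kb of H2A.B against 4.21 over the whole lower side. For 5mC replicates 1, 2 and 3 the stretch had 0.275, 0.65 and 0.175 per kb, against 0.578, 0.448 and 0.214. It was thus sparser than the lower side as a whole in H2A.B and in 5mC replicates 1 and 3, and denser in replicate 2. The ratios without the stretch were not computed, so the H2A.B ratio in particular is not to be read apart from it.

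Over the whole domain H2A.B stood at 265 CPM (254 to 276), or 1.71 times its median over the 5831 kept windows of the same length, and 88.7% of those windows were at or below it. The flanks of equal length stood at 1.47 and 1.84 times that median, so the domain lay between its neighbours. Against IgG ChIP the ratio of H2A.B was 1.46 (1.19 to 1.8) in the domain, 1.13 (0.933 to 1.39) in the lower flank and 1.73 (1.40 to 2.16) in the upper flank. Without the control region the domain's ratio was 1.44.

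For 5mC the domain stood at 273 CPM in replicate 1, 136 in replicate 2 and 173 in replicate 3, which is 2.12 (1.91 to 2.35), 0.934 (0.824 to 1.06) and 1.09 (0.913 to 1.28) times the median window. The mean of 1.38 ± 0.646 (SD, n = 3) lay within 1 SD of the flanks, at 1.28 ± 0.408 and 1.58 ± 0.602. Replicate 1 was high in both flanks too, at 1.74 and 2.25. Against IgG MeDIP the 5mC ratios were 3.09 (1.71 to 6.23), 1.53 (0.842 to 3.11) and 1.95 (1.06 to 4.00) in replicates 1, 2 and 3, on 11 IgG reads. The mean was 2.19 ± 0.804 (SD, n = 3), against 1.40 ± 0.295 and 1.11 ± 0.327 in the flanks, where IgG MeDIP had 16 and 25 reads. IgG MeDIP itself was at 0.733 (0.366 to 1.31) of its median window in the domain and at 1.07 and 1.67 in the flanks.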

How the data were processed

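The deposited files are lists of aligned reads with chromosome, start, end, name, score and strand. The authors' score column is constant and was not used. The submitters' processing notes name Bowtie, FastQC and build mm9, without versions. The treatment of reads with several matches is not given in the sources used. DNA for ChIP (200 to 400 bp) had 20 PCR cycles and DNA for MeDIP (100 to 400 bp) had 15, per the labels' protocols. From the deposited positions, distinct reads were counted by 5′ position, since the libraries carry no molecular identifiers, and scaled to chromosomes 1 to 19, X and Y. Distinct reads were 39.9% (5mC replicate 1) to 86.9% (H2A.B ChIP) of reads. For the genome background, 20 kb windows with a mean CPM from 25% to 10 times the median were kept, 127407 of 132081. Ratios have exact Clopper-Pearson intervals and counts exact Poisson intervals (scipy 1.17.1, numpy 2.4.6, pandas 2.3.3). A count of 0 entered all values as 0, and the worth of 3 counts was used only as the limit that a 0 allows. Both IgG libraries have a description naming the H2A.B antibody, and their title and antibody field were used. The scripts were checked on made-up counts.

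The interval, the genes and the rules were chosen with earlier results of these data known. Named windows were those that touch the control region, the 5 with the highest mean 5mC CPM, the 5 with the most H2A.B reads, and the 3 sections with the highest lower and the 3 with the lowest upper bound of the H2A.B ratio. A tie at the third of the highest sections was kept. Alternatives covered duplicates, scaling, section and window size, thresholds, the control region's bounds, fragment extension to 200 bp, the shared reads and each 5mC replicate.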

Additional observations from a re-analysis of the deposited data

Results flagged for a closer look

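Reads in lines outside the main counts fell in the control region. In the H2A.B list 1 line without the tab format, and in the list of 5mC replicate 1 8 such lines, lay there, while IgG ChIP and IgG MeDIP had no read in the region. In the domain, 12 reads of IgG MeDIP, at 11 positions, were found again under their own names among those of 5mC replicate 2, and 0 of them lay in the control region.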

How the results depend on the processing

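Of 57 values under alternatives, 45 kept within the main value's error or within 1.5 times its count, and 12 moved. For the 5mC means that error was the SD over 3 replicates, 10.8 for the control-region ratio. The fall of that mean from 7.57 to 1.36 without replicate 1 thus counted as kept. So did the change of enriched sections from 4 of 22 to 3 of 44. The tally is therefore no measure of how stable these values were. The H2A.B level of the domain went from 1.71 to 1.48 times the median window when scaled to chromosome 7. Enriched sections were 2 of 11 (18.2%, genome 4.79%) at 40 kb and 3 of 44 (6.82%, genome 0.615%) at 10 kb, against 4 of 22 (18.2%, genome 2.35%), and with all reads as deposited 4 of 22 against 6.73% of the genome. With the control region widened by 0.5 kb on each side, its ratio to the rest of the domain went from 20.0 to 12.8 in 5mC replicate 1 and from 3.71 to 2.53 in H2A.B. Without reads within 1000 lines of another, an alternative added after the data were seen, it was 13.1 in 5mC replicate 1. Recurrent 5mC windows, 28 (6.36%, genome 5.03%), fell below the genome share with the first sorted block of replicate 2 (14, 3.18%, genome 3.55%) and with at least 2 reads in each library (2, 0.455%, genome 0.512%). They stayed above it with 2 kb windows (50 of 220, 22.7%, genome 16.2%) and without replicate 1 (56, 12.7%, genome 11.2%), 2 (52, 11.8%, genome 8.55%) or 3 (79, 18.0%, genome 15.1%), where the genome share rose too. High H2A.B windows went from 9 (2.05%, genome 1.1%) to 43 (9.77%, genome 3.91%) at 3 times the median. The mean 5mC ratio of the control region was 1.36 without replicate 1 and 10.9 and 10.5 without replicates 2 and 3. The mean 5mC level of the domain was 1.01, 1.60 and 1.53 without replicates 1, 2 and 3, and the mean ratio to IgG MeDIP 1.74, 2.52 and 2.31. No paired analysis was possible because only the 5mC libraries carry replicate numbers and each other group is 1 library. In IgG MeDIP 3 counts are worth 24.2 CPM and in IgG ChIP 5.56 CPM, which limits what can be said of the control region.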
